A study of Mus musculus with 6 samples.

Results

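The miR-17-92 cluster and its X-linked paralogue miR-106a-363 are a pair of polycistrons, transcripts that carry several miRNA hairpins each. The report covers 10 mature miRNAs from them, chosen by name: the main arms miR-17-5p, miR-18a-5p, miR-19a-3p, miR-20a-5p, miR-19b-3p and miR-92a-3p of miR-17-92, the main arms miR-106a-5p, miR-18b-5p and miR-20b-5p of the paralogue, and miR-17-3p as a second arm. All 10 were among the 685 mature miRNAs listed in every library. The libraries came from N2a cells, a mouse neuroblastoma line, differentiated toward neuron-like cells with 10 µM retinoic acid over 96 h. The treated group (RSL3, n = 3) then received 5 µM RSL3 for 24 h, and the control group (DMSO, n = 3) received its solvent. Both groups carried the retinoic acid treatment, and both came from 1 immortal line, so no group without retinoic acid and no untransformed neuron stood beside them. RSL3 inhibits GPX4, the enzyme that reduces lipid peroxides, and induces ferroptosis, an iron-dependent cell death. The comparison asks which of these miRNAs differed after RSL3.

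A polycistron of this kind is cut in the nucleus by Drosha into hairpins, and Dicer then releases a duplex of which 1 strand usually stays in Argonaute. Its seed, bases 2 to 8, pairs with target mRNAs. The transcription factors Myc, MYCN and E2F drive miR-17-92, which is often raised in neuroblastoma and other tumours. Its members lower mRNAs that restrain growth or promote cell death, among them Bcl2l11 and Cdkn1a, and its level usually goes down as neural progenitors leave the cell cycle.

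The sequences below show how the 10 members fall into seed groups, because members with 1 seed bind the same target sites and near-identical members can compete for the same sequencing reads. They are from RefSeq (GRCm38.p6), run 5′ to 3′, and have the seed in capitals; the species prefix mmu is left out of names after this.
mmu-miR-17-5p: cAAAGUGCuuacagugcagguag
mmu-miR-20a-5p: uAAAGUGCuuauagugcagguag
mmu-miR-106a-5p: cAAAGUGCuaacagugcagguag
mmu-miR-20b-5p: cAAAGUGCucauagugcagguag
mmu-miR-18a-5p: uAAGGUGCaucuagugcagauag
mmu-miR-18b-5p: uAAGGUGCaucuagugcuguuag
mmu-miR-19a-3p: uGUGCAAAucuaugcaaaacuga
mmu-miR-19b-3p: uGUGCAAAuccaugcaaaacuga
mmu-miR-92a-3p: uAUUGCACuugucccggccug
mmu-miR-17-3p: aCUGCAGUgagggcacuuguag

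The miR-17 group held 4 members, the miR-18 and miR-19 groups 2 each, and miR-92a-3p and miR-17-3p had a seed of their own among the 10. Counted from the 5′ end, miR-106a-5p differed from miR-17-5p by 1 base (U10A), miR-20a-5p by 2 (C1U and C12U) and miR-20b-5p by 2 (U10C and C12U). Likewise miR-18b-5p differed from miR-18a-5p by A18U and A20U, and miR-19b-3p differed from miR-19a-3p by U11C alone. How reads that match more than 1 of them were assigned is not given in the sources used here, so the split of reads within a seed group is uncertain.

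The 6 hairpins of miR-17-92 lie within 836 bp of chromosome 14, plus strand, between 115043671 and 115044506 (GRCm38), in the order 17, 18a, 19a, 20a, 19b-1 and 92a-1. All 6 are inside an exon of the annotated long non-coding transcript of Mir17hg. The 6 hairpins of the paralogue lie within 875 bp on the minus strand of the X chromosome, from 52741693 to 52742567, and none is fully inside any of the 4 annotated transcripts of Kis2, the long non-coding gene next to them on that strand. The mature miR-19b-3p is encoded at both places (14, 115044358 to 115044380, and X, 52741991 to 52742013), as is miR-92a-3p (14, 115044476 to 115044496, and X, 52741854 to 52741874). Their reads therefore cannot be given to 1 cluster.

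The listed miRNAs held 3406276 to 4989380 reads per RSL3 library and 4306460 to 6058006 per DMSO library. The deposited unit was CPM scaled by edgeR's TMM factor, a correction for library composition, and is called CPM here. One step of 1 read equalled 0.157 to 0.314 CPM. A count of 0 would allow up to 3 reads, or 0.470 to 0.941 CPM, for counting error only. The labels call the cells neurons, and all 6 neuronal markers were listed. Their summed level was 193002 to 248387 CPM in RSL3 and 224484 to 308512 CPM in DMSO libraries, most of it miR-7a-5p. Over the 6 libraries miR-7b-5p was at 22880 to 35743 CPM, miR-9-5p at 2781 to 5278 CPM and miR-128-3p at 1787 to 2386 CPM. The lowest were miR-124-3p, at 135 to 221 CPM, and miR-9-3p, at 119 to 201 CPM. Blood and immune markers (2 of 5 listed) summed to 61.8 to 118 CPM in RSL3 and 61.5 to 89.7 CPM in DMSO libraries, muscle markers (3 of 3 listed) to 68.8 to 129 and 105 to 193 CPM, the liver marker miR-122-5p was at 2.41 to 5.96 and 1.41 to 3.54 CPM, and pluripotent markers (1 of 4 listed) were at 0.508 to 2.21 and 0.222 to 1.57 CPM. Their part in the results was not tested.

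None of the 10 members passed the test for a difference between RSL3 and DMSO cells. With limma on log2(CPM + 1) and Benjamini-Hochberg adjustment over 666 miRNAs, 0 members were called at an adjusted p under 0.05, against 0.601% of all tested miRNAs called higher, 0.15% called lower and 0.751% called in either direction. At an unadjusted p under 0.05 there were 0 members higher and 1 lower (miR-19a-3p), where 8.86% of all miRNAs were higher, 8.41% lower and 17.3% either. On the recovered reads edgeR called 0 members, against 0.901% of all miRNAs, and DESeq2 called 0 of the 7 members to which it gave an adjusted p, against 10.5%. The log2 fold change was negative in 8 of 10 members and in 49.8% of all miRNAs, with a median of -0.19 over the members and 0.0013 over all. With median centring it was negative in 6 of 10 members, as miR-17-5p and miR-19b-3p turned. The share over all miRNAs with that centring was not computed. Fewer cells that make a miRNA and less of it per cell cannot be told apart in these bulk libraries.

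**Figure D1:**
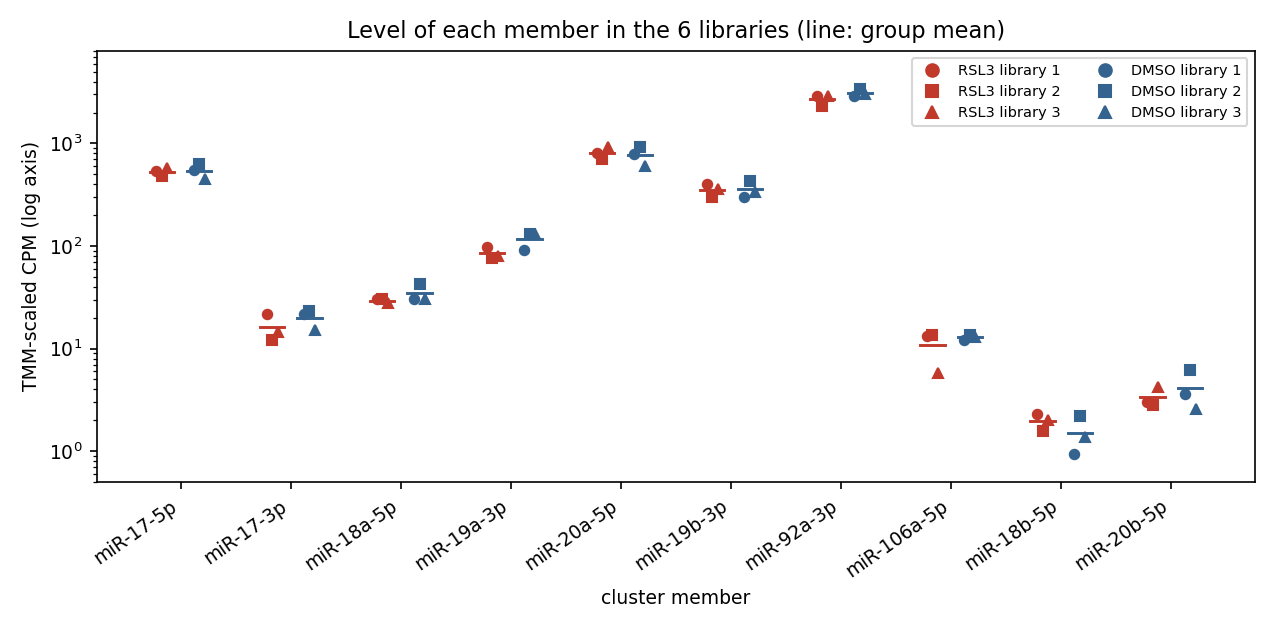
Level of each member in TMM-scaled CPM on a log axis, with 1 point per library and a line at the group mean, RSL3 libraries in red to the left of DMSO libraries in blue. Levels run from miR-92a-3p, at 2338 CPM or more in every library, down to miR-18b-5p, at most 2.29 CPM in every library, and the points of the groups overlap in 9 of the 10 members.

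In read level the members differed far more from each other than the groups did. By mean CPM over the 6 libraries the order was miR-92a-3p (2898), miR-20a-5p (791), miR-17-5p (535), miR-19b-3p (356), miR-19a-3p (102), miR-18a-5p (31.97), miR-17-3p (18.1), miR-106a-5p (11.9), miR-20b-5p (3.74) and miR-18b-5p (1.73). The mature forms are 21 to 23 nt long, with miR-92a-3p the shortest, and levels are reads per miRNA. How closely reads of different sequences follow numbers of molecules was not tested, here or for the ratios and shares below. Neighbours in the order had overlapping ranges for miR-20a-5p and miR-17-5p, for miR-17-3p and miR-106a-5p and for miR-106a-5p and miR-20b-5p. Within a library miR-20a-5p was nonetheless above miR-17-5p in 6 of 6, by 1.32 to 1.61 times. The most abundant member, miR-92a-3p, ranked 40 of 685 in the table and miR-18b-5p ranked 601.

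The 3 main arms found only in the paralogue were low. Their sum was 18.6, 17.9 and 12.0 CPM in RSL3 libraries 1 to 3, against 16.8, 22.0 and 16.9 CPM in DMSO libraries 1 to 3. The 4 main arms found only in miR-17-92 summed to 1454 ± 159 CPM in RSL3 and 1466 ± 254 CPM in DMSO libraries (SD, n = 3 each). Of the passenger arms that separate the loci, miR-19b-1-5p and miR-92a-1-5p of chromosome 14 were listed. Their X-linked counterparts miR-19b-2-5p and miR-92a-2-5p were not among the listed miRNAs, nor was miR-363, so they are not analysed here. That does not show that the cells lacked them.

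In the miR-17 seed group, which gives the cluster its cell cycle targets such as Cdkn1a, both abundant members had overlapping groups. The founding member miR-17-5p was at 532, 478 and 574 CPM in RSL3 libraries 1 to 3, against 547, 625 and 453 CPM in DMSO libraries 1 to 3. The DMSO libraries included both the highest and the lowest value, and the log2 fold change was -0.029 ± 0.13 (SE, limma adjusted p = 0.92). Its 95% interval ran from 0.802-fold to 1.20-fold.

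The closely related miR-20a-5p was at 811, 702 and 922 CPM in RSL3 libraries 1 to 3, against 792, 922 and 600 CPM in DMSO libraries 1 to 3. Again the DMSO values spread more widely than the RSL3 values and enclosed them, at the upper end by less than 1 read. The log2 fold change was 0.087 ± 0.16 (SE, limma adjusted p = 0.80), with an interval of 0.840-fold to 1.34-fold.

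The paralogue's miR-106a-5p was at 13.2, 13.5 and 5.82 CPM in RSL3 libraries 1 to 3, against 12.2, 13.5 and 13.0 CPM in DMSO libraries 1 to 3. RSL3 library 3, with 29 reads, was low and the other 5 libraries were close together. The log2 fold change was -0.31 ± 0.27 (SE, limma adjusted p = 0.58). With a library left out it ran from -0.50 to 0.046, the last without RSL3 library 3. For miR-20b-5p the levels were 3.05, 2.82 and 4.21 CPM in RSL3 libraries 1 to 3, against 3.604, 6.21 and 2.56 CPM in DMSO libraries 1 to 3. These rest on 9 to 28 reads a library. The log2 fold change was -0.18 ± 0.29 (SE, limma adjusted p = 0.76). With a library left out it ran from -0.42 to 0.094, the last without DMSO library 2. Summed over the 4 members, the miR-17 group stood at 1354 ± 155 CPM in RSL3 and 1330 ± 250 CPM in DMSO libraries (SD, n = 3 each).

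In the miR-18 seed group, miR-18a-5p was at 30.2, 30.1 and 27.7 CPM in RSL3 libraries 1 to 3, against 30.4, 43.1 and 30.3 CPM in DMSO libraries 1 to 3. The RSL3 values lay below all DMSO values, but RSL3 library 1 and DMSO library 3 were apart by less than 1 read is worth. It was the 1 member whose groups did not overlap. Of all tested miRNAs 24.3% had groups that did not overlap, 12.3% with RSL3 higher and 12% with RSL3 lower. The log2 fold change was -0.21 ± 0.18 (SE, limma adjusted p = 0.57). With a library left out it ran from -0.29 to -0.048, the last without DMSO library 2. Its paralogue miR-18b-5p had few reads, with 9, 5 and 10 in RSL3 libraries 1 to 3, against 6, 10 and 7 reads in DMSO libraries 1 to 3. Its groups overlapped, and the log2 fold change was 0.26 ± 0.28 (SE, limma adjusted p = 0.66), with an interval of 0.787-fold to 1.82-fold and values of 0.087 to 0.45 with a library left out.

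The miR-19 seed group held the member with the smallest p. The level of miR-19a-3p was 98.1, 77.2 and 80.6 CPM in RSL3 libraries 1 to 3, against 91.8, 131 and 131 CPM in DMSO libraries 1 to 3. RSL3 library 1 was above DMSO library 1, and the other RSL3 libraries were below every DMSO library. The log2 fold change was -0.45 ± 0.16 (SE), or 0.730-fold with an interval of 0.570 to 0.934, an unadjusted limma p of 0.016 and an adjusted p of 0.17. The adjusted p was 0.15 in edgeR and 0.097 in DESeq2, and ran from 0.078 to 0.47 over all alternatives, so miR-19a-3p did not pass in any of them.

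The second member, miR-19b-3p, was at 404, 298 and 362 CPM in RSL3 libraries 1 to 3, against 302, 430 and 339 CPM in DMSO libraries 1 to 3, so both groups covered nearly the same range. Its log2 fold change was -0.0041 ± 0.15 (SE, limma adjusted p = 0.99), with an interval of 0.794-fold to 1.25-fold. Added together, the miR-19 group stood at 440 ± 63.1 CPM in RSL3 and 475 ± 83.7 CPM in DMSO libraries (SD, n = 3 each).

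The last hairpin of the cluster gives miR-92a-3p, a regulator of vessel growth and of the same death-promoting mRNA, Bcl2l11. It was at 2901, 2338 and 2891 CPM in RSL3 libraries 1 to 3, against 2881, 3357 and 3019 CPM in DMSO libraries 1 to 3. DMSO library 1 lay below the highest RSL3 library, so the groups overlapped. Its log2 fold change was -0.19 ± 0.12 (SE, limma adjusted p = 0.43), with an interval of 0.728-fold to 1.05-fold. With a library left out this value ran from -0.24 to -0.089, the last without RSL3 library 2, which had the lowest level. Among the 6 main arms of miR-17-92, miR-92a-3p held 59.9 ± 0.682% of the summed level in RSL3 and 63.0 ± 2.68% in DMSO libraries (SD, n = 3 each).

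**Figure D2:**
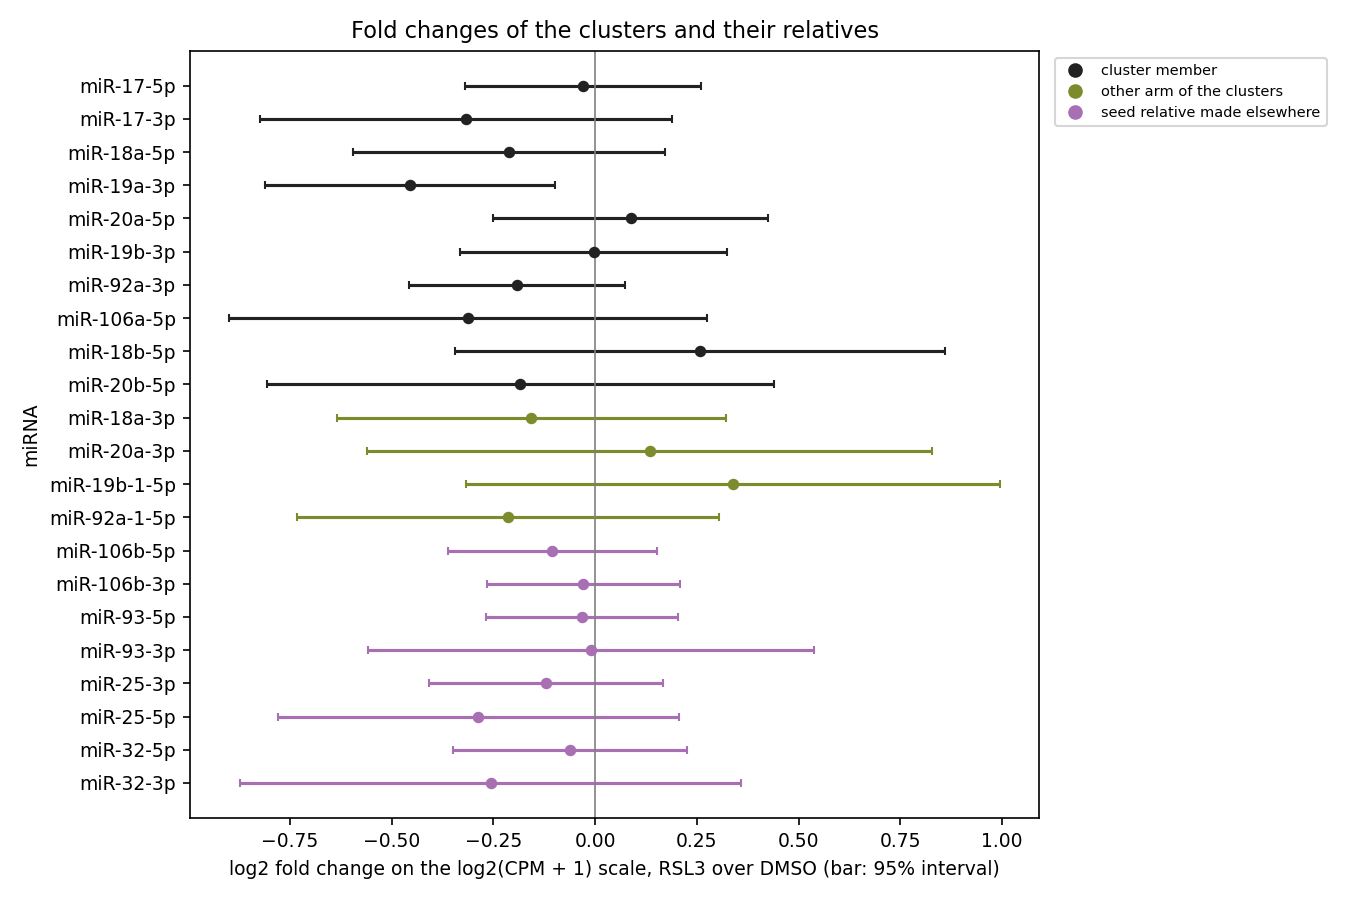
Log2 fold change of RSL3 over DMSO on the log2(CPM + 1) scale with its 95% interval for the 10 members (black), the 4 listed other arms of the clusters (green) and 8 seed relatives or their other arms made elsewhere (purple). The interval of miR-19a-3p, from -0.81 to -0.098, is the one that leaves out 0 before adjustment over all miRNAs.

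Some single libraries moved the members' shared direction, and others left it as it was. DMSO library 2 had the highest value of all 6 libraries for 8 of the 10 members, where it was the highest for 16.8% of all tested miRNAs. RSL3 library 2 had the lowest value for 4 of the 10 (miR-17-3p, miR-19a-3p, miR-19b-3p and miR-92a-3p), where it was the lowest for 21.2% of all miRNAs. The 10 members summed to 4817, 3954 and 4884 CPM in RSL3 libraries 1 to 3, against 4683, 5555 and 4604 CPM in DMSO libraries 1 to 3. The means were 4552 ± 519 CPM in RSL3 and 4947 ± 528 CPM in DMSO libraries (SD, n = 3 each), and the DMSO mean was 4644 CPM without library 2. Without that library 5 of the 10 log2 fold changes were negative, and the median over the members was 0.016. Over all miRNAs 51.5% were then negative, with a median of -0.0087. Without RSL3 library 2 the count was 6 of 10 and the median -0.092, against 51.7% and -0.0090 over all miRNAs. Without DMSO library 3 they were 9 of 10 and -0.25, against 48.6% and 0.0060 over all miRNAs. Without RSL3 library 1, RSL3 library 3 or DMSO library 1 the count stayed at 8 of 10. The medians were then -0.19, -0.13 and -0.23, against 0.019, 0.0027 and 0.022 over all miRNAs, of which 47.7%, 49.7% and 47.4% were negative.

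**Figure D3:**
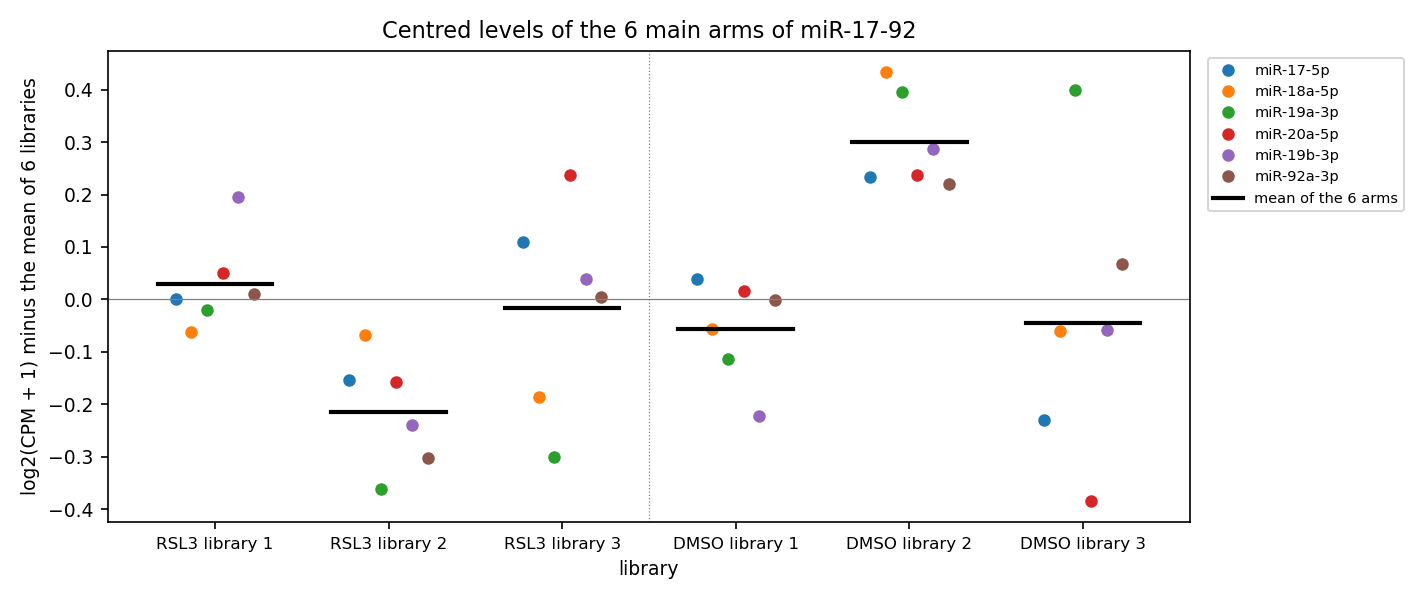
Log2(CPM + 1) of the 6 main arms of miR-17-92, each less its own mean over the 6 libraries, with 1 coloured point per arm and a black line at the mean of the arms. DMSO library 2 is the one in which all 6 arms lie above their mean, with a mean of 0.30, and RSL3 library 2 the one in which all 6 lie below, with a mean of -0.21.

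The 6 main arms of miR-17-92 differed in how closely each followed the other 5 across the libraries. How much of these distances is counting error was not tested. The root mean square distance of an arm's centred log2 level from the mean of the other 5 arms was 0.086 for miR-92a-3p, 0.12 for miR-19b-3p, 0.13 for miR-17-5p, 0.14 for miR-18a-5p, 0.21 for miR-20a-5p and 0.27 for miR-19a-3p. In DMSO library 3 miR-20a-5p and miR-17-5p had their lowest level and miR-19a-3p its highest. Among 402 tested miRNAs with a mean of at least 10 CPM outside the clusters and their relatives, the profiles nearest to the mean of the 6 arms were those of miR-296-5p (distance 0.056), miR-203-3p (0.068) and miR-883b-5p (0.071), with a median distance of 0.25 over all 402. These 3 are the nearest of many, over 6 libraries.

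Hairpins of 1 transcript are made together, so cluster mates can be compared within a library. For miR-19b-3p and miR-92a-3p, which the paralogue also encodes, a ratio to miR-17-5p is not within 1 transcript alone. The level of 5 arms relative to miR-17-5p and of 2 relative to miR-106a-5p was compared by two-sided exact permutation tests, whose smallest possible p with 3 libraries a group is 0.1. No comparison could therefore pass 0.05, and the values are given as a description: over the 7 comparisons the exact permutation p ran from 0.2 to 0.9, with a smallest adjusted p of 0.42, and all groups overlapped. Among the abundant mates the difference furthest from 0 was that of miR-19a-3p, at a log2 ratio to miR-17-5p of -2.62 ± 0.19 in RSL3 and -2.19 ± 0.39 in DMSO libraries (SD, n = 3 each). That difference was -0.42. With a library left out it ran from -0.61 to -0.22, the last without DMSO library 3, in which miR-19a-3p had its highest ratio. The ratio of miR-20a-5p to miR-17-5p was 0.61 ± 0.066 and 0.50 ± 0.084 in RSL3 and DMSO libraries.

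Over all 15 pairs of the 6 arms, a set chosen after the data were seen and described without a test, the groups did not overlap in 2 pairs. Among 86736 pairs of miRNAs with a mean of at least 10 CPM they did not overlap in 26.2%, so 2 of 15 is no more than the background. The level of miR-19b-3p was 4.11, 3.87 and 4.495 times that of miR-19a-3p in RSL3 libraries 1 to 3, against 3.29, 3.28 and 2.57 times in DMSO libraries 1 to 3. These 2 miRNAs share a seed and differ by U11C, so reads assigned to the wrong one would enter this ratio, and that was not tested. The level of miR-92a-3p was 3.58, 3.33 and 3.14 times that of miR-20a-5p in RSL3 libraries 1 to 3, against 3.64, 3.64 and 5.03 times in DMSO libraries 1 to 3, where library 3 stood apart. As miR-19b-3p and miR-92a-3p are also encoded in the paralogue, neither ratio is within 1 transcript alone.

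The hairpin of miR-17 is the one whose strands are both among the 10, and its sequence (RefSeq, GRCm38.p6, plus strand, chr14:115043671-115043754) is shown with both mature arms in capitals, the 5p arm first. The hairpin of miR-106a (chrX:52742503-52742567, minus strand) has its 5p arm in capitals and shows how alike these arms are.
Mir17: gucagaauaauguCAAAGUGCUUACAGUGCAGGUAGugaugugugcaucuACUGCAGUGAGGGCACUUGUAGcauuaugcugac
Mir106a: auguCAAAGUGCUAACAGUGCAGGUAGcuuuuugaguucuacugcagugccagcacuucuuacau

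The second arm miR-17-3p was at 21.6, 12.2 and 14.4 CPM in RSL3 libraries 1 to 3, against 21.9, 23.1 and 15.2 CPM in DMSO libraries 1 to 3. RSL3 libraries 2 and 3 were below every DMSO library and RSL3 library 1 lay among the DMSO values (log2 fold change -0.32 ± 0.23 SE, limma adjusted p = 0.51). Single libraries moved this value, to -0.54 without RSL3 library 1, -0.15 without RSL3 library 2, -0.21 without DMSO library 2 and -0.497 without DMSO library 3. The log2 ratio of 5p to 3p was 4.56, 5.18 and 5.22 in RSL3 libraries 1 to 3, against 4.58, 4.70 and 4.81 in DMSO libraries 1 to 3. The 5p arm thus led in every library, and the difference in the ratio was 0.29 ± 0.22 (SE, limma adjusted p = 0.56 over 182 hairpins). It was 0.50 without RSL3 library 1, 0.19 without RSL3 library 2 and 0.17 without RSL3 library 3. For miR-18a the log2 ratio was 1.53 ± 0.39 in RSL3 and 1.58 ± 0.32 in DMSO libraries, and for miR-20a 8.36 ± 0.12 and 8.41 ± 0.71 (SD, n = 3 each). The limma adjusted p was 0.93 for miR-18a and 0.95 for miR-20a. The 3p arm of miR-20a had 3 to 10 reads a library, so its ratio rests on counts near the floor. Of these 3 hairpins 0 were called in limma at an adjusted or unadjusted p under 0.05, against 2.75% and 22% of all 182; the read-count tools were not run on ratios.

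**Figure D4:**
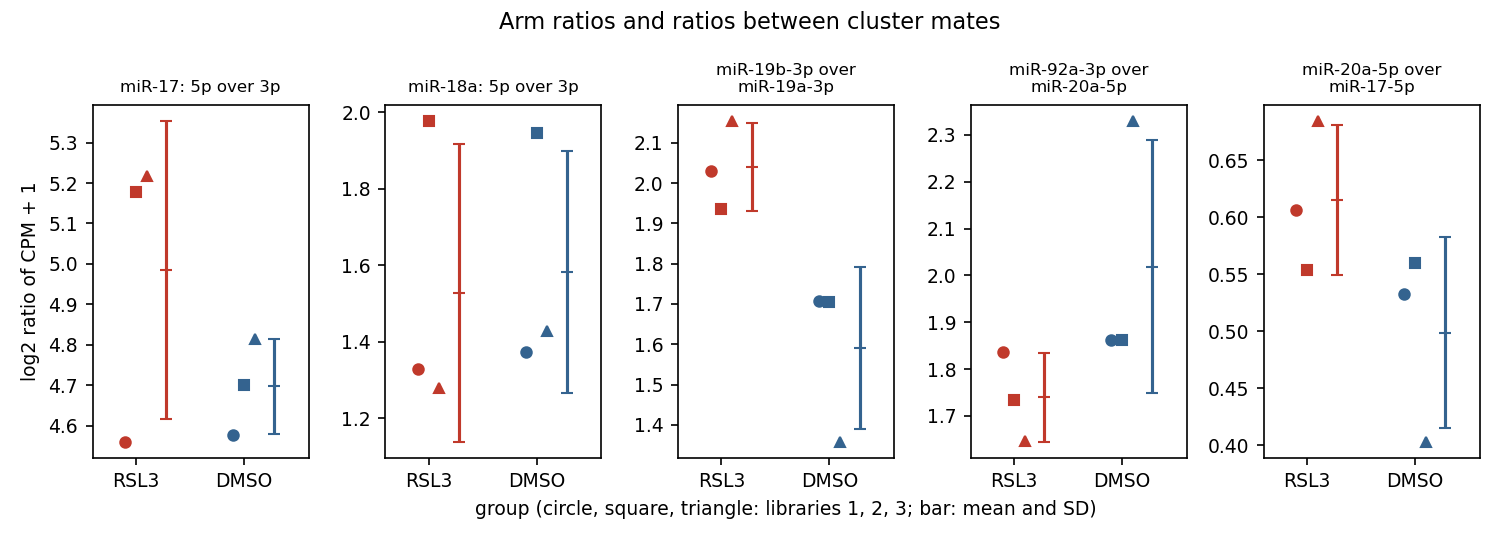
Log2 ratios of CPM + 1 in the 6 libraries for the arms of miR-17 and miR-18a and for 3 pairs of cluster mates, RSL3 (red) left of DMSO (blue), with the mean and SD of each group beside the points and a separate vertical axis in each panel. The groups are apart for miR-19b-3p over miR-19a-3p and for miR-92a-3p over miR-20a-5p and overlap in the other panels.

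The other arms of both clusters were named as 12 entries, of which 4 were listed and tested. In limma 0 passed, against 0.751% of all miRNAs, and 0 had an unadjusted p under 0.05, against 17.3%. The edgeR test called 0, against 0.901%, and DESeq2 gave none of the 4 an adjusted p. Their log2 fold changes ran from -0.21 to 0.34. The most abundant, miR-18a-3p, was at 9.72 ± 2.46 CPM in RSL3 and 10.7 ± 0.358 CPM in DMSO libraries, and the next, miR-92a-1-5p, at 3.24 ± 0.667 and 3.89 ± 0.439 CPM (SD, n = 3 each).

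Seed relatives made elsewhere can act on the same sites, chiefly those of miR-106b-25, another cluster of this family in an intron of Mcm7. Of the arms named here, miR-106b-5p and miR-93-5p carried the miR-17 seed and miR-25-3p and miR-32-5p the miR-92 seed. The other arms of these hairpins, counted with them below, carried no seed of the members. Of the 8 named arms of miR-106b, miR-93, miR-25 and miR-32, limma called 0 (0 unadjusted), edgeR 0 and DESeq2 0 of the 5 with an adjusted p, where the shares over all miRNAs were 0.751% (17.3% unadjusted), 0.901% and 10.5%. All 8 had negative log2 fold changes, against 49.8% of all miRNAs, from -0.29 to -0.0095, with a median of -0.083. With median centring 5 of 8 were negative, and the share over all miRNAs was not computed for it. The most abundant, miR-25-3p, was at 6281 ± 351 CPM in RSL3 and 6882 ± 1122 CPM in DMSO libraries (SD, n = 3 each). The next, miR-106b-3p, which does not carry a member's seed, was at 1700 ± 86.5 and 1737 ± 130 CPM.

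Among the entries with a RefSeq mature sequence, the members supplied all, or only part, of the reads with their seed, depending on the seed. A RefSeq mature sequence was found for 554 of the 685 entries. Among these, 6 carried the miR-17 seed, and the 4 members made up 48.4% to 50.8% of the summed level in RSL3 and 43.4% to 51.6% in DMSO libraries, the rest being miR-93-5p and miR-106b-5p. The total was 2710 ± 247 CPM in RSL3 and 2730 ± 289 CPM in DMSO libraries (SD, n = 3 each). The miR-92 seed was carried by 4 entries, of which miR-92a-3p made up 27.9% to 30.6% in RSL3 and 25.9% to 33.3% in DMSO libraries, with miR-25-3p as the main carrier. Their total was 9152 ± 663 CPM in RSL3 and 10134 ± 1031 CPM in DMSO libraries (SD, n = 3 each), and the ranges overlapped. The miR-18 and miR-19 seeds were carried by members alone among the matched entries.

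**Figure D5:**
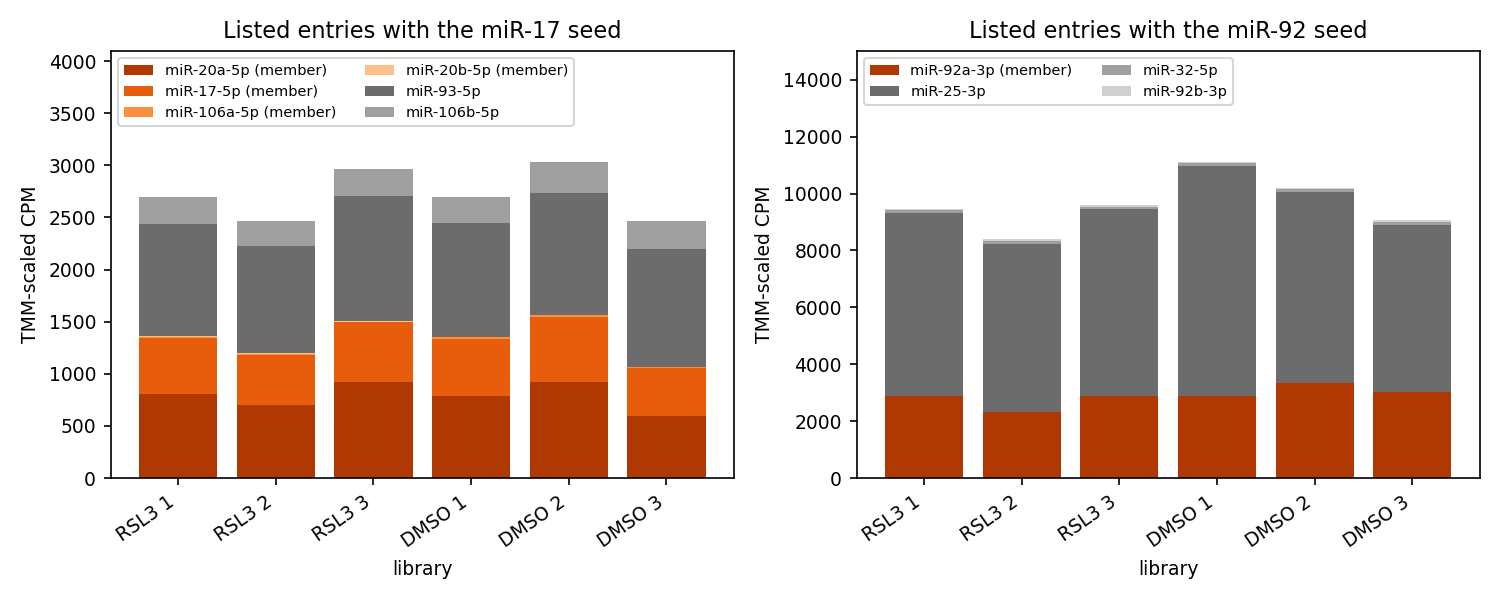
Summed TMM-scaled CPM of the listed entries that carry the miR-17 seed (left) and the miR-92 seed (right) in each library, stacked by miRNA. Members are in orange and other entries in grey. Only the 554 of 685 entries with a RefSeq mature sequence were searched for seeds. Members make up 43.4% to 51.6% of the left bars and 25.9% to 33.3% of the right bars.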

How the data were processed

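Small RNA was sequenced from 3 RSL3 and 3 DMSO libraries of retinoic acid-treated N2a cells. The submitters' processing notes name cutadapt, Bowtie, edgeR and GRCm38. For their order, versions, settings and handling of multiply matching reads the entry is: not given in the sources used here. Every deposited signal value, named CPM by the authors, equalled a whole number of reads (100% within 0.01). The recovered reads times a TMM factor computed from them (0.936 to 1.05) gave each library's divisor, so the values are TMM-scaled CPM over the listed miRNAs; plain CPM had been assumed when the tests were set.

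Tests used R 4.3.3 and limma 3.58.1 on log2(CPM + 1) with a variance trend, two-sided, with Benjamini-Hochberg adjustment over the 666 miRNAs that reached 1 CPM in at least 3 libraries. All 10 members passed this filter. Fold changes on this scale understate changes of low miRNAs. Arms were paired by name, and ratios were fitted over 182 hairpins. The edgeR 4.0.16 quasi-likelihood test and DESeq2 1.42.0 on recovered reads were alternatives, beside other pseudocounts, filters, scalings, variance models, a replicate block, summed near-identical entries and libraries left out. The fits were tested on simulated data. The members, lists and named relatives (called in any tool, or the 2 most abundant of a list, or the 3 nearest profiles) were chosen with earlier results of these data known. The labels do not say whether replicates were separate cultures. The p-values set the group difference against the spread among these libraries, which may be technical only.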

Additional observations from a re-analysis of the deposited data

How the results depend on the processing

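Members called were 0 in either direction under the 18 alternatives run on them singly, though DESeq2 gave 3 no adjusted p and the 10 CPM filter dropped miR-18b-5p and miR-20b-5p. Cluster hairpins called in the arm ratio were 0 under other pseudocounts, a 10 CPM filter (which dropped miR-20a), the block and each library left out. Over all miRNAs, 4 were called higher and 1 lower. The higher count was 1 without a variance trend, 1 with the replicate block, 19 in DESeq2 and 1 to 14 with a library left out. The lower count was 3 with a 10 CPM filter, 0 with median centring, 12 when the top 5 miRNAs were left out of the scaling, 0 without a trend, 0 with the block, 2 in edgeR, 21 in DESeq2 and 0 to 12 with a library left out. Of all hairpins 5 were called, 2 at a pseudocount of 0.5 and 11 at 5, 2 with the block and 1 to 6 with a library left out. Log2 fold changes that turned sign were those of miR-17-5p (0.0082 with median centring, -0.15 to 0.081 with a library left out), miR-19b-3p (0.033 and -0.12 to 0.14), and, with a library left out, miR-20a-5p (-0.083 to 0.23), miR-106a-5p (-0.50 to 0.046) and miR-20b-5p (-0.42 to 0.094). The change of the arm ratio turned in miR-20a (0.046 with a pseudocount of 5, -0.42 to 0.28 with a library left out) and miR-18a (-0.28 to 0.13), and the ratio to a cluster mate in miR-19b-3p (-0.10 to 0.12) and miR-20b-5p (-0.36 to 0.40). The cause was not tested. The block moved no other call. The labels do not say whether the numbers pair the libraries. Same-numbered libraries had deviations correlated at -0.35, -0.33 and -0.19 across miRNAs, and differently numbered ones at 0.041 to 0.30. Deviations were taken from the means of groups of 3, so these values cannot decide whether the libraries were paired. With near-identical entries summed, log2 fold changes were 0.037 for the miR-17 seed group, -0.18 for the miR-18 group and -0.11 for the miR-19 group. Depth limits miR-18b-5p, miR-20b-5p and the 3p arm of miR-20a. The pair and left-out descriptions were chosen after seeing the data, the rest with earlier results known.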
